A study of Rattus norvegicus with 40 samples.

Results

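Kidneys of hypertensive and normotensive rats were compared for how their gene expression differed between amlodipine and H2O, using 8 of the 40 arrays of the study. The 4 groups were SHRSP/Izm rats with amlodipine at 20 mg/kg/day, SHRSP/Izm rats with H2O, WKY/Izm rats with amlodipine at the same dose, and WKY/Izm rats with H2O, with 2 arrays in each. SHRSP/Izm is an inbred stroke-prone line of the spontaneously hypertensive rat, and WKY/Izm is the related normotensive strain. All rats were males sampled at 16 weeks of age, and each array label named 2 animals. The labels name no vehicle for amlodipine, and H2O was taken as its reference. The sources used here give neither route nor duration of dosing. The quantity studied is the difference of responses, which is amlodipine minus H2O in SHRSP minus the same difference in WKY. It equals the strain difference (SHRSP minus WKY) with amlodipine minus the strain difference with H2O.

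Amlodipine blocks L-type voltage-gated calcium channels, chiefly those of arterial smooth muscle, and so relaxes resistance vessels and lowers blood pressure. Long-standing hypertension in SHRSP damages renal arterioles, glomeruli and tubules. Injured tubules are known to switch on genes such as Havcr1, Lcn2, Spp1 and Clu, macrophages enter the interstitium, and fibroblasts deposit collagens and other matrix proteins.

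RNA was measured as intensity on CodeLink arrays, and levels are given as log2 of the quantile-normalised intensity, on which each array's median lay near 0. A floor of 0.38 in intensity, which is -1.40 on the log2 scale, was applied. Between 60.0% and 65.0% of the probes on the 8 arrays carried the flag for a good signal. The genes of the proximal tubule list averaged between 5.55 and 5.68 on these arrays, and those of the skeletal muscle list between -1.07 and -0.82. The uromodulin gene Umod, which marks the thick ascending limb, lay between 5.90 and 7.67 on all 8 arrays. Arrays of the same group differed by a root mean square of 0.24 to 0.26 over probes. The number of arrays limits the precision. Arrays of a group named different animals, and whether the RNA of the 2 animals of an array was pooled is not stated.

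Of 24993 probes tested, 99 had a difference of responses past the threshold (limma, Benjamini-Hochberg adjusted p under 0.05), which is 0.396% of them. It was negative for 60 of these probes (0.24% of those tested) and positive for 39 (0.156%). Without adjustment 2368 probes had a p under 0.05. With the deposited intensities floored but not quantile normalised (median scaling) 51.6% of 64 calls were positive. With the authors' deposited table, neither floored nor quantile normalised, 50.0% of 28 were, against 39.4% of the 99. Over all probes the median difference of responses was 0.0, and 51.2% of the values were negative. The 99 probes covered 63 named genes on 64 probes, and 35 probes had no single gene symbol. A good flag on all 8 arrays was present for 57 of the 99, and 34 had at least 1 group without any good flag. By the fit over all 40 arrays the strain difference itself passed the threshold for 2253 probes with amlodipine (9.01%) and for 2530 probes with H2O (10.1%). SHRSP was higher for 1120 probes with amlodipine (4.48%) and for 1296 with H2O (5.19%).

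All 4 H2O arrays were scanned in 1 session on 1 series of slides, and all 4 amlodipine arrays in another session on another series. A shift that adds equally to both strains cancels in the difference of responses, and a shift that depends on strain or on level does not. Session and treatment cannot be told apart for the change within a strain, which is therefore given as values only. Solvents B (NaOH) and C (0.5% MC) lay on the same slide series as amlodipine. So did hydralazine at 10 mg/kg/day, a direct vasodilator given to other rats of both strains. Solvent A (PEG300, EtOH and NaHCO3) lay on another series. Solvents A, B and C were scanned in sessions that held neither amlodipine nor H2O arrays. Each strain had 1 hydralazine array in the amlodipine session and 1 in another. For the 19 named calls with a good flag in each of the 4 compared groups, values from solvent or hydralazine groups are given beside the result. When the mean strain difference of Solvents B and C took the place of that with H2O, 94 of the 99 probes kept the direction, and 10 of them passed the threshold again, among them Tnmd, Nrep, Wfdc1 and Olfml2b. For 96 of the 99 the strain difference with amlodipine lay nearer to the mean of Solvents B and C than to that with H2O. These counts use the amlodipine arrays that chose the 99 probes, and the 96 also uses the H2O arrays that chose them. Fitting the 8 arrays alone, with 4 residual degrees of freedom, put 1 probe past the threshold, which was none of the 99, with 2333 at an unadjusted p under 0.05.

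**Figure D1:**
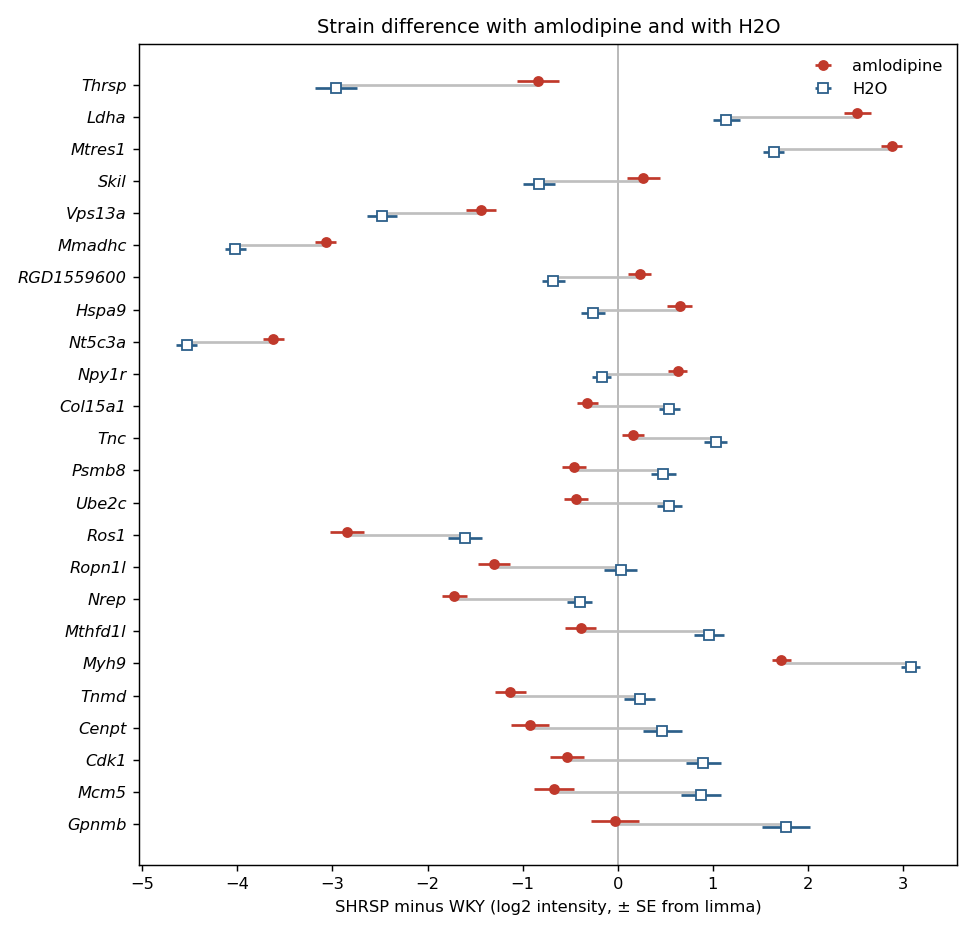
Strain difference (SHRSP minus WKY, log2 intensity, horizontal axis) with amlodipine (filled circles) and with H2O (open squares) for the 24 named genes past the threshold, 2 arrays per group, with standard errors from limma. Genes run from the most positive difference of responses (Thrsp, 2.12) to the most negative (Gpnmb, -1.80), and the grey line joins the 2 strain differences of a gene.

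The strain difference of Gpnmb was close to 0 with amlodipine, and SHRSP was higher with H2O. Gpnmb encodes a transmembrane glycoprotein of macrophages and injured tubules, transcribed in other species under the MITF and TFE factors. On its probe GE13440 the SHRSP arrays read 2.74 and 2.62 with amlodipine, against 3.21 and 4.65 with H2O. The WKY arrays read 2.55 and 2.87 with amlodipine, against 2.16 and 2.17 with H2O. The SHRSP groups did not overlap, and the SHRSP arrays with amlodipine lay within the range of the WKY arrays with amlodipine. SHRSP exceeded WKY by 1.77 on the log2 scale with H2O, and the strain difference was -0.03 with amlodipine. The difference of responses was -1.80 ± 0.36 (SE, limma, adjusted p = 0.0251). It depended on single arrays. Without SHRSP H2O replicate 2 it was -1.08 (adjusted p = 0.0204), and without SHRSP H2O replicate 1 it was -2.51. The adjusted p exceeded the threshold without WKY H2O replicate 1 (0.0721), without WKY amlodipine replicate 2 (0.097) and without SHRSP amlodipine replicate 2 (0.0693). Strain differences elsewhere were -0.06 with hydralazine, 0.74 with Solvent B, 0.60 with Solvent C and 1.07 with Solvent A. Against Solvents B and C the difference of responses was -0.70 (adjusted p = 0.585).

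The start of the rat Gpnmb promoter is shown because the core of the M-box, the element that MITF binds, can be looked for in it. RefSeq (assembly GRCr8) places it on the plus strand at chr4:79340988-79341137, from 140 bases before the annotated start, with capitals on the core CATGTG, here read on the other strand.
Gpnmb: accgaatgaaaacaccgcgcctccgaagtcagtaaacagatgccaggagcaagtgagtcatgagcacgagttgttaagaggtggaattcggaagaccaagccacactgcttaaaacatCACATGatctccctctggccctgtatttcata
The core began 22 bases before the start (position -22). Searched on both strands, CATGTG stood in 14.0% of all 33469 RefSeq promoters of 300 bases and in 8.4% of those of the genes tested. RefSeq gives the reference rat's sequence, not that of either strain, and a match is no evidence of binding. The list of lysosomal and MITF-TFE target genes had 32 genes measured, of which Gpnmb alone passed the threshold, against 0.24% of all probes for negative values. The list's median difference of responses was -0.03.

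Among the other genes of tubular injury none passed the threshold. The list held 24 measured genes. Gpnmb was the 1 member past the threshold, against 0.24% of all probes for negative values, and 23 of 24 differences were negative, against 51.2% over all probes. The median was -0.56. With H2O 13 of the 24 genes were higher in SHRSP past the threshold and 2 lower. Of all probes 5.19% were higher and 10.1% were called in either direction. With amlodipine 4 were higher and 5 lower, where 4.48% of all probes were higher and 9.01% were called in either direction. The median strain difference over the list was 0.09 with amlodipine and 0.60 with H2O. It was -0.06 with hydralazine, 0.27 with Solvent B, 0.09 with Solvent C and 0.27 with Solvent A, and against Solvents B and C the median difference of responses was -0.15.

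Havcr1, which encodes the kidney injury molecule 1 of damaged proximal tubules, had the widest spread. On probe GE1278517 the SHRSP arrays read 3.98 and 1.36 with amlodipine, against 4.13 and 5.61 with H2O. All 4 WKY arrays lay below these, at 0.96 and 0.70 with amlodipine and 0.54 and 0.82 with H2O. SHRSP exceeded WKY by 1.84 with amlodipine and by 4.19 with H2O on that probe. The strain difference there was -0.01 with hydralazine, 3.16 with Solvent B, 2.04 with Solvent C and 3.11 with Solvent A. The difference of responses was -2.35 ± 0.85 (limma, adjusted p = 0.296), and -0.76 against Solvents B and C (adjusted p = 0.917). The probe with the higher mean over all arrays, GE13234, gave -1.88 ± 0.58 (adjusted p = 0.185) with a different strain pattern, since SHRSP lay 1.55 below WKY with amlodipine and 0.33 above it with H2O. The probes thus disagreed on which strain was higher with amlodipine.

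Lcn2, the gene of the secreted iron-siderophore carrier NGAL, read 3.41 and 2.00 in SHRSP with amlodipine, against 3.42 and 4.82 with H2O. In WKY it read 2.39 and 2.23 with amlodipine, against 2.10 and 2.23 with H2O. Its difference of responses was -1.57 ± 0.52 (limma, adjusted p = 0.238). Clusterin, a secreted chaperone encoded by Clu, gave -0.85 ± 0.24 (adjusted p = 0.145), with SHRSP above WKY by 0.67 with amlodipine and 1.52 with H2O. The hyaluronan receptor gene Cd44 gave -1.27 ± 0.32 (adjusted p = 0.0853), and Timp1, an inhibitor of matrix metalloproteinases, gave -0.98 ± 0.26 (adjusted p = 0.101). Spp1, which encodes osteopontin, read 6.74 and 5.66 in SHRSP with amlodipine, against 6.20 and 7.18 with H2O, and gave -0.97 ± 0.40 (adjusted p = 0.398). In Lcn2 and Spp1 the 2 SHRSP arrays of each treatment stood further apart than the WKY arrays. Leaving out either SHRSP H2O replicate 1 or SHRSP amlodipine replicate 1 brought Havcr1 on GE13234 (-2.59 and -2.65), Lcn2 (-2.27 and -2.27), Clu (-1.18 and -1.13), Timp1 (-1.17 and -1.24) and Cd44 (-1.56 and -1.52) past the threshold. Cd44 also passed it without WKY H2O replicate 2 (-1.56). With scan session as a fixed block Cd44 (-1.27, adjusted p = 0.0372) and Timp1 (-0.98, adjusted p = 0.0475) passed it, and with session as a random block Cd44 did (adjusted p = 0.0396). Against Solvents B and C the differences of responses were -0.11 for Havcr1 on GE13234, -0.14 for Lcn2, -0.27 for Clu and 0.03 for Spp1. They were -0.40 for Cd44 and -0.33 for Timp1. Against hydralazine they were 0.88 for Havcr1 on GE13234, 0.52 for Lcn2, 0.63 for Spp1, 0.23 for Timp1, 0.08 for Clu and -0.01 for Cd44. None of these genes passed the threshold against either reference.

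The spread among SHRSP arrays was seen in the mean level of the whole injury list. That mean was 2.95 and 2.60 in SHRSP with amlodipine, against 2.97 and 3.47 with H2O. The WKY arrays gave 2.93 and 2.93 with amlodipine, against 2.73 and 2.73 with H2O. SHRSP H2O replicate 2 was the highest of all 8 arrays, and SHRSP amlodipine replicate 1 lay close to SHRSP H2O replicate 1. Without SHRSP H2O replicate 2 the median difference of responses of the list was -0.34, and without SHRSP H2O replicate 1 it was -0.79.

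**Figure D2:**
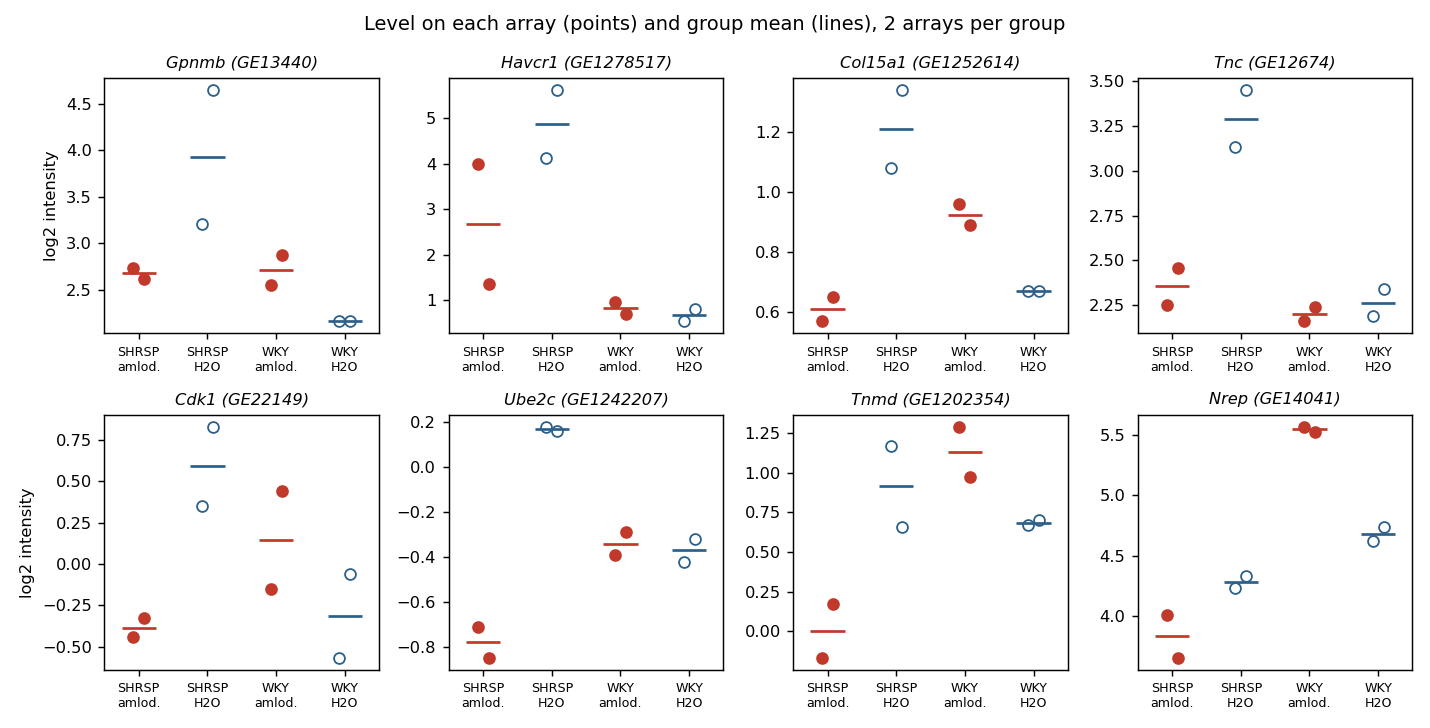
Level (log2 intensity) on each of the 8 arrays for 8 genes, with amlodipine in filled and H2O in open points and lines at the group means. Gpnmb, Tnc and Ube2c were lower on both amlodipine arrays than on both H2O arrays of SHRSP, while on Havcr1 probe GE1278517 the 2 SHRSP amlodipine arrays read 3.98 and 1.36.

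In the matrix list Col15a1 and Tnc passed the threshold, with a negative difference of responses, and the other 39 of the 41 genes measured did not. Collagen XV, encoded by Col15a1, anchors basement membranes to the collagen fibres below. On probe GE1252614 the SHRSP arrays read 0.57 and 0.65 with amlodipine, against 1.08 and 1.34 with H2O. The WKY arrays read 0.96 and 0.89 with amlodipine, against 0.67 and 0.67 with H2O. On this probe neither strain's groups overlapped, and the amlodipine arrays were the lower ones in SHRSP and the higher ones in WKY. The strain difference was -0.32 with amlodipine and 0.54 with H2O, and the difference of responses was -0.85 ± 0.16 (limma, adjusted p = 0.0175). A second probe, GE12283, gave -1.17 ± 0.20 (adjusted p = 0.00757), and the remaining one, GE19352, gave -0.52 ± 0.26 (adjusted p = 0.533). The mean change with amlodipine in WKY was 0.25 on GE1252614, -0.03 on GE12283, where the WKY groups overlapped, and -0.42 on GE19352, so the probes disagreed on WKY. With hydralazine the strain difference on GE1252614 was -0.48, so against hydralazine the difference of responses turned to 0.17. Against Solvents B and C it was -0.36 (adjusted p = 0.491).

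Tnc encodes tenascin-C, a matrix glycoprotein that is scarce in most adult tissue and appears at sites of injury. Its probe GE12674 read 2.25 and 2.46 in SHRSP with amlodipine, against 3.13 and 3.45 with H2O. WKY arrays gave 2.16 and 2.24 with amlodipine, against 2.19 and 2.34 with H2O. The 2 SHRSP arrays with H2O stood above the other 6. SHRSP exceeded WKY by 0.16 with amlodipine and by 1.03 with H2O, and the difference of responses was -0.87 ± 0.17 (limma, adjusted p = 0.0178). The other probe, GE1281022, gave -0.67 ± 0.22 (adjusted p = 0.21). On GE12674 the strain difference was 0.22 with hydralazine, 0.59 with Solvent B, 0.35 with Solvent C and 0.42 with Solvent A, and the difference of responses was -0.31 against Solvents B and C (adjusted p = 0.612). Without SHRSP H2O replicate 2, Tnc (-0.70, adjusted p = 0.0966) and Col15a1 on GE1252614 (-0.72, adjusted p = 0.0923) no longer passed the threshold. Col15a1 also missed it without WKY H2O replicate 1 (0.0584) or WKY amlodipine replicate 1 (0.0564). Tnc missed it without WKY H2O replicate 1 (0.0844), WKY amlodipine replicate 2 (0.0635) or SHRSP amlodipine replicate 1 (0.0552).

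Of the 41 matrix genes measured, Col15a1 and Tnc were the 2 past the threshold, both negative, against 0.24% of all probes. Of the 41 differences of responses 34 were negative, against 51.2% over all probes, with a median of -0.20, which was -0.16 against Solvents B and C. Col8a1, a short-chain collagen of vessel walls, gave -1.43 (limma, adjusted p = 0.0598), and the elastin gene Eln gave -1.24 (adjusted p = 0.0974). For the fibrillar collagen gene Col1a1 probe GE22042 gave -0.48 ± 0.37 (adjusted p = 0.769) and probe GE21222 gave -1.07 ± 0.29 (adjusted p = 0.116). With amlodipine 3 genes of the list were higher in SHRSP past the threshold and 2 lower, and with H2O 12 were higher and 1 lower. Of all probes 4.48% were higher with amlodipine and 5.19% with H2O, and 9.01% and 10.1% were called in either direction. The list's mean level was 1.86 in SHRSP with amlodipine and 1.85 in WKY with amlodipine, and it was 2.06 in SHRSP with H2O and 1.73 in WKY with H2O. With hydralazine it was 1.85 in SHRSP and 1.78 in WKY. With Solvent B it was 2.01 in SHRSP and 1.71 in WKY, and with Solvent C 1.97 in SHRSP and 1.81 in WKY.

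**Figure D3:**
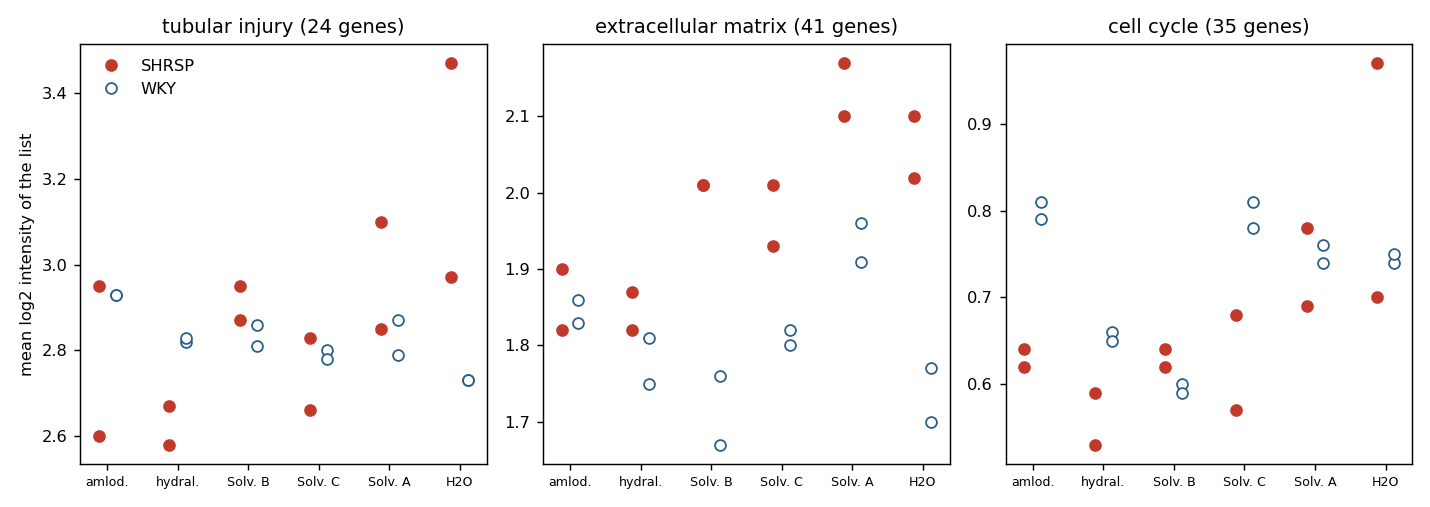
Mean level (log2 intensity) of the genes of 3 lists on each array of SHRSP (filled) and WKY (open) by treatment, 2 arrays per group. The matrix list averaged 1.86 in SHRSP and 1.85 in WKY with amlodipine, and 2.06 and 1.73 with H2O, and SHRSP H2O replicate 2 was the highest array for tubular injury, at 3.47.

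Other secreted and matrix-associated genes were among the 63, and these were picked after their values were seen. Prg4, the lubricin gene, had a difference of responses of -1.07 ± 0.24 (limma, adjusted p = 0.0474). Efemp2, whose product fibulin-4 is needed for elastic fibres, gave -0.50 ± 0.10 (adjusted p = 0.0345). SHRSP lay 0.57 below WKY with amlodipine and 0.07 below it with H2O for Efemp2. With Solvents B and C as the reference, Prg4 gave -0.67 (adjusted p = 0.289) and Efemp2 -0.33 (adjusted p = 0.208).

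Tnmd, Nrep, Wfdc1 and Olfml2b had a difference of responses past the threshold against H2O and also against Solvents B and C. Tnmd encodes tenomodulin, a membrane glycoprotein known from tendon and fat. It read -0.17 and 0.17 in SHRSP with amlodipine, against 1.17 and 0.66 with H2O. In WKY it read 1.29 and 0.97 with amlodipine, against 0.67 and 0.70 with H2O. Amlodipine arrays were the lowest in SHRSP and the highest in WKY, with no overlap in either strain. The strain difference was -1.13 with amlodipine and 0.23 with H2O, and it lay between -0.07 and 0.11 with Solvents A, B and C and hydralazine. The difference of responses was -1.36 ± 0.23 (limma, adjusted p = 0.00757), and it was -1.12 against Solvents B and C (adjusted p = 0.0237) and -1.24 against hydralazine (adjusted p = 0.0496). It passed the threshold whichever 1 of the 8 arrays was left out. In the adipocyte list Tnmd was the 1 of 13 genes past the threshold, against 0.24% of all probes for negative values, with a list median of 0.05.

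Nrep encodes P311, a small protein of regenerating neurons and of myofibroblasts. Its arrays read 4.01 and 3.65 in SHRSP with amlodipine, against 4.23 and 4.33 with H2O. The WKY arrays read 5.57 and 5.53 with amlodipine, against 4.62 and 4.74 with H2O. WKY with amlodipine stood above the other 6 arrays. The strain difference was -1.72 with amlodipine, -0.40 with H2O and between -0.97 and -0.74 in the other 4 groups. Its difference of responses was -1.32 ± 0.18 (limma, adjusted p = 0.00189), and -0.87 against Solvents B and C (adjusted p = 0.0234). Against hydralazine it was -0.75 (adjusted p = 0.219). Leaving out any 1 of the 8 arrays kept it past the threshold.

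Wfdc1, which encodes a secreted whey acidic protein of prostate stroma and smooth muscle, was chosen after its values were seen. It read 1.47 and 1.92 in SHRSP with amlodipine, against 1.92 and 1.91 with H2O, and 2.89 and 2.74 in WKY with amlodipine, against 1.81 and 2.16 with H2O. As in Nrep, WKY with amlodipine was the highest group, and the difference of responses was -1.05 ± 0.20 (limma, adjusted p = 0.0158). Olfml2b, an extracellular olfactomedin-domain protein gene also chosen after its values were seen, gave -1.12 ± 0.15 (adjusted p = 0.00189). Its strain difference was -0.51 with amlodipine and 0.60 with H2O.

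**Figure D4:**
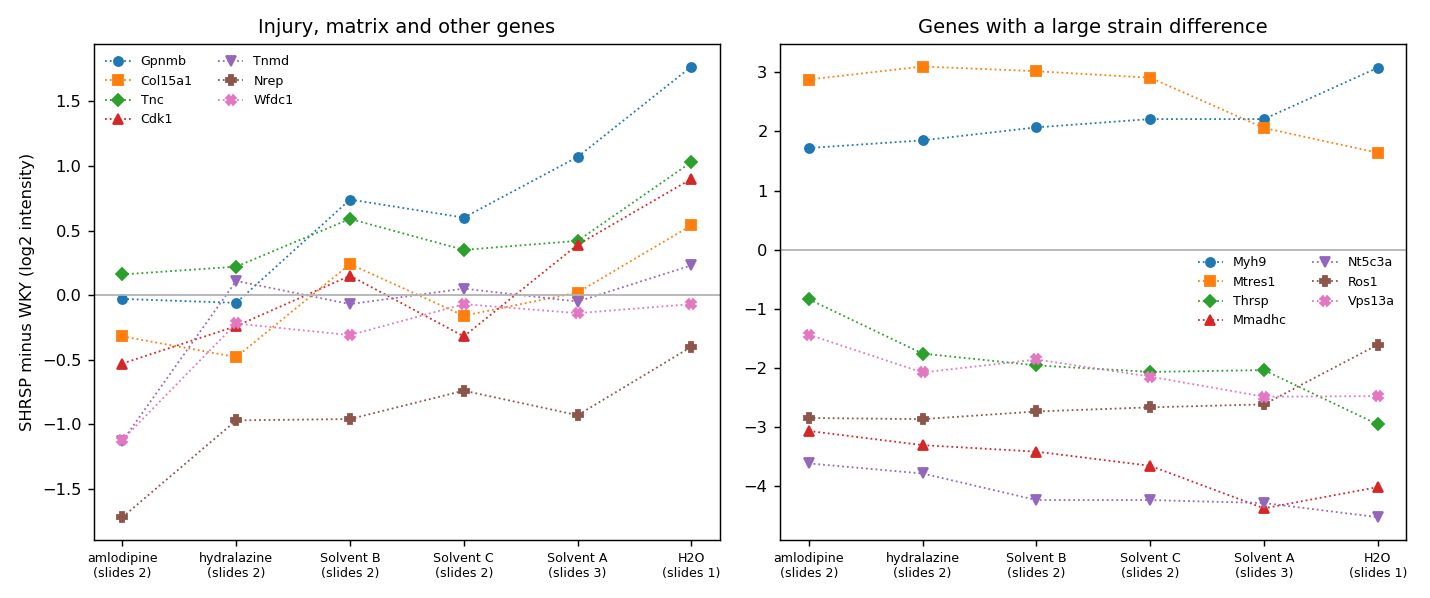
Strain difference (SHRSP minus WKY, log2 intensity) of 14 genes in 6 treatment groups, with the slide series under each name. Dotted lines only join points of 1 gene. Tnmd lay at -1.13 with amlodipine and between -0.07 and 0.23 elsewhere, while Myh9 lay at 3.08 with H2O and between 1.72 and 2.21 elsewhere.

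Cdk1, Ube2c and Mcm5, genes of DNA replication and mitosis, had a negative difference of responses at levels near the lower end of the measurable range. Cdk1, the kinase that drives entry into mitosis, read -0.44 and -0.33 on probe GE22149 in SHRSP with amlodipine, against 0.35 and 0.83 with H2O. WKY arrays read -0.15 and 0.44 with amlodipine, against -0.57 and -0.06 with H2O. The SHRSP groups did not overlap, and the WKY groups did. The difference of responses was -1.44 ± 0.26 (limma, adjusted p = 0.0116), and on probe GE20644 it was -0.77 ± 0.23 (adjusted p = 0.177). Ube2c, a ubiquitin-conjugating enzyme gene of the anaphase-promoting complex, read -0.71 and -0.85 in SHRSP with amlodipine, against 0.18 and 0.16 with H2O. In WKY it read -0.39 and -0.29 with amlodipine, against -0.42 and -0.32 with H2O, and its difference of responses was -0.99 ± 0.19 (adjusted p = 0.0169).

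Mcm5, a subunit of the replicative helicase, gave -1.53 ± 0.30 on probe GE12570 (limma, adjusted p = 0.0239) and -0.27 ± 0.15 on the fainter GE1251193 (adjusted p = 0.592). Its SHRSP arrays on GE12570 read -1.18 and -1.40 with amlodipine, the second at the floor, against -0.42 and 0.15 with H2O. Genes chosen after their values were seen included the spindle protein gene Spag5 at -1.19 ± 0.26 (adjusted p = 0.0427), the kinetochore gene Cenpw at -1.22 ± 0.26 (adjusted p = 0.0407) and the nuclear lamina gene Lmnb1 at -0.73 ± 0.14 (adjusted p = 0.0175). For Cenpw no WKY array with H2O had a good flag, so its level there was only a bound. With Solvents B and C as the reference, Spag5 gave -0.79 (adjusted p = 0.224), Cenpw -0.28 (adjusted p = 0.889) and Lmnb1 -0.50 (adjusted p = 0.102). Top2a, the mitotic DNA topoisomerase gene, gave -1.19 ± 0.31 (adjusted p = 0.0952), and Kif11, a spindle motor gene, 0.49 ± 0.15 (adjusted p = 0.172).

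With 1 probe per gene, the cell cycle list had 35 genes measured, of which Ube2c alone passed the threshold, against 0.24% of all probes for negative values. Cdk1 and Mcm5 passed it on a probe that was not the one used for the list. Of the 35 differences 28 were negative, against 51.2% over all probes, with a median of -0.21, which was -0.09 against Solvents B and C. That median was -0.05 without SHRSP H2O replicate 2, against -0.30 without SHRSP H2O replicate 1. The list's mean level was 0.63 in SHRSP with amlodipine and 0.80 in WKY with amlodipine, and it was 0.83 in SHRSP with H2O and 0.74 in WKY with H2O. Cdk1 missed the threshold without SHRSP H2O replicate 2 (-1.20, adjusted p = 0.0687), WKY H2O replicate 1 (-1.18, 0.0721) or WKY amlodipine replicate 2 (-1.14, 0.0635). Mcm5 missed it without SHRSP H2O replicate 2 (-1.25, adjusted p = 0.108), WKY H2O replicate 1 (0.0555), WKY amlodipine replicate 2 (0.0635) or SHRSP amlodipine replicate 2 (0.0778). Ube2c missed it without WKY H2O replicate 1 (0.0702), WKY amlodipine replicate 2 (0.0614) or SHRSP amlodipine replicate 2 (0.0608). In hydralazine and Solvents A, B and C the strain difference lay between -0.32 and 0.39 for Cdk1, between -0.47 and 0.19 for Mcm5 and between -0.15 and 0.31 for Ube2c. Against Solvents B and C the difference of responses was -0.45 for Cdk1 (adjusted p = 0.657), -0.70 for Mcm5 (adjusted p = 0.483) and -0.61 for Ube2c (adjusted p = 0.186).

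Promoters of many genes of DNA replication and mitosis are known to hold CCAAT boxes, bound by NF-Y, or the CHR element, bound by the DREAM and MuvB complexes. The starts of 3 of them, from 140 bases before the annotated start on the plus strand, are shown from RefSeq (assembly GRCr8), with CCAAT and the CHR core TTTGAA in capitals on either strand. Cdk1 lies at chr20:19265153-19265302, Mcm5 at chr19:13488673-13488822 and Spag5 at chr10:63696696-63696845.
Cdk1: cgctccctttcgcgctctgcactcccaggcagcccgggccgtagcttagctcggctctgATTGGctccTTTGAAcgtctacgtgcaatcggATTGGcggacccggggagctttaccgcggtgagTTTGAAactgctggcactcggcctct
Mcm5: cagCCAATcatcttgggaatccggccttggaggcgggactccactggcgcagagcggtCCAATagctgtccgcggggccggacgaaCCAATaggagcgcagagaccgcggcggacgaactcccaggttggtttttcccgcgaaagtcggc
Spag5: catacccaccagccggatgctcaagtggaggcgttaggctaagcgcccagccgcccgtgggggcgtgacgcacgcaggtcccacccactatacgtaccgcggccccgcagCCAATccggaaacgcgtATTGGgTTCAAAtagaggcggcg
Within the 300 bases given for each gene Cdk1 held 2 CHR cores and 3 CCAAT boxes, Mcm5 3 CCAAT boxes and no CHR core, and Spag5 1 CHR core and 2 CCAAT boxes. CCAAT stood in 37.5% of all 33469 promoters and in 37.4% of those of tested genes, and TTTGAA in 18.3% and 11.5%. Among the other genes named with them, Cenpw held 1 CHR core and no CCAAT box, and Lmnb1 held 1 of each. Kif11 held 1 CCAAT box and no CHR core, and Top2a 1 CHR core and 4 CCAAT boxes. No CCAAT box overlapped a CHR core in the 3 sequences shown, and a match is a description only.

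In the lists of macrophage, antigen presentation and lymphocyte genes, Psmb8 alone passed the threshold. None of the 34 genes of the macrophage and inflammation list passed the threshold for the difference of responses by limma. An unadjusted p under 0.05 was seen for 12, against 2368 of all 24993 probes. Of the 34 values 27 were negative, against 51.2% over all probes, with a median of -0.27. The median strain difference of the list was -0.01 with amlodipine and 0.38 with H2O. With H2O 10 genes were higher in SHRSP past the threshold (5.19% of all probes were), against 4 with amlodipine (4.48%). Tyrobp, the signalling adaptor of myeloid receptors, gave -0.71 (adjusted p = 0.0775), and the Fc receptor gene Fcgr1a gave -0.56 (adjusted p = 0.0766). In bulk tissue fewer cells of a type and less RNA per cell cannot be told apart. Against Solvents B and C the list's median was -0.04.

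Of the 30 antigen presentation and interferon genes, 1 passed the threshold, against 0.24% of all probes for negative values. Of the 30 differences 23 were negative, against 51.2% over all probes, with a median of -0.20, which was -0.04 against Solvents B and C. That gene was Psmb8, a catalytic subunit of the immunoproteasome. Its arrays read 2.98 and 2.77 in SHRSP with amlodipine, against 3.82 and 3.99 with H2O. The WKY arrays read 3.28 and 3.39 with amlodipine, against 3.38 and 3.48 with H2O. SHRSP with H2O was the highest of the 4 groups and SHRSP with amlodipine the lowest. The difference of responses was -0.94 ± 0.18 (limma, adjusted p = 0.0237), and -0.46 against Solvents B and C (adjusted p = 0.396). The strain difference of Psmb8 was -0.27 with hydralazine, -0.03 with Solvent B, 0.04 with Solvent C and 0.31 with Solvent A. Psmb8 missed the threshold without SHRSP H2O replicate 2 (0.0931), WKY H2O replicate 1 (0.0844), WKY amlodipine replicate 2 (0.077) or SHRSP amlodipine replicate 2 (0.0934). The immunoproteasome genes Psmb10 and Psmb9 gave -0.68 (adjusted p = 0.22) and -0.56 (adjusted p = 0.603). Chosen after their values were seen, the leukocyte tetraspanin gene Cd53 gave -0.66 ± 0.14 (adjusted p = 0.0405), and the CCR7 ligand gene Ccl21 gave -1.22 ± 0.27 (adjusted p = 0.046). With Solvents B and C as the reference, Cd53 gave -0.44 (adjusted p = 0.223) and Ccl21 -0.80 (adjusted p = 0.254).

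**Figure D5:**
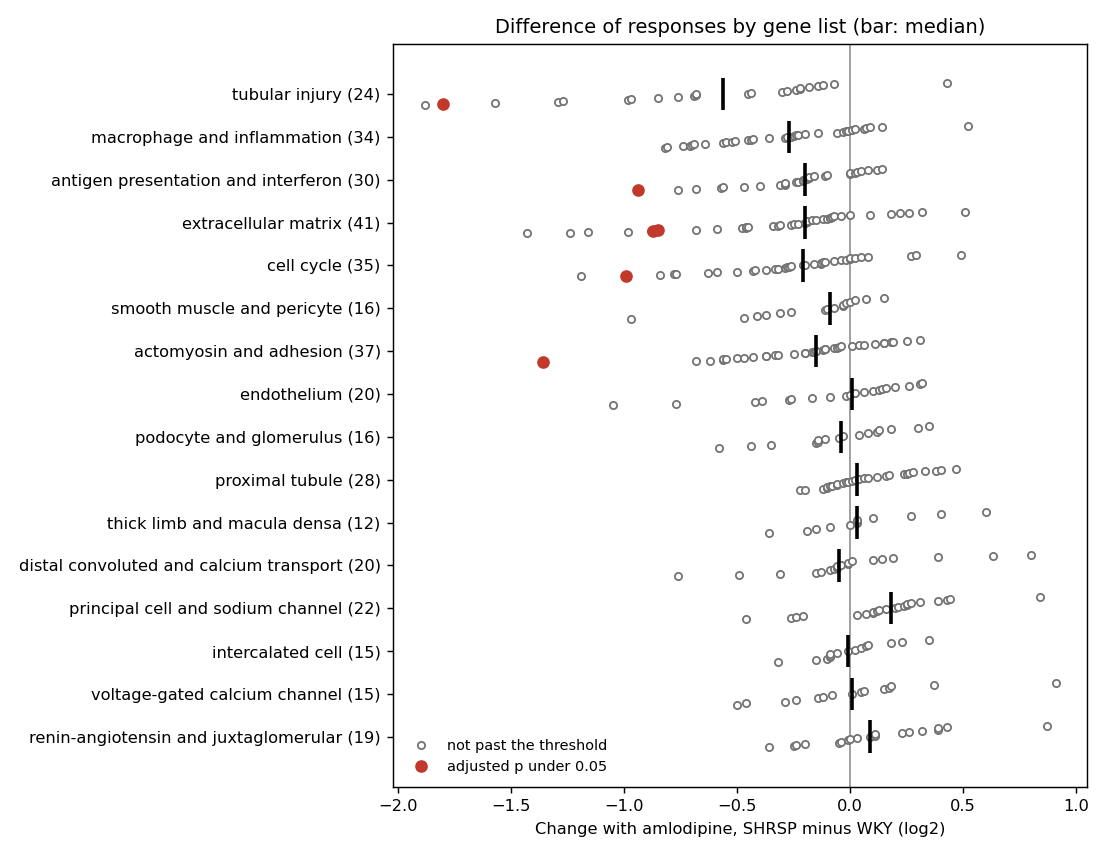
Difference of responses (amlodipine minus H2O, SHRSP minus WKY, log2) of each measured gene in 16 lists, with the number measured in brackets, filled points past the threshold and bars at the medians. Medians ran from -0.56 for tubular injury to 0.18 for the principal cell list, and 23 of 24 injury genes lay below 0.

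Several genes with a large strain difference had a different one with amlodipine than with H2O. Among the 99 probes 26 had a strain difference of at least 1 in size with H2O, and for 22 of these it was smaller in size with amlodipine. These 26 were chosen for a difference between the treatments, so the counts are a description. Over the 276 probes with a good flag and a called strain difference of at least 1 with H2O, the median ratio of the strain difference to that with H2O was 0.88 with amlodipine, 0.86 with hydralazine, 0.89 with Solvent B, 0.88 with Solvent C and 0.91 with Solvent A. The 276 probes were chosen for a large strain difference with H2O, which is also the divisor. Ratios below 1 can therefore come from the choice itself, and they are a description. The part of slide series and session in them was not tested.

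Myh9 had the smallest adjusted p of the named genes. It encodes the heavy chain of non-muscle myosin IIA, which podocytes and other cells use to contract. On probe GE18813 the SHRSP arrays read 5.09 and 5.29 with amlodipine, against 5.34 and 5.53 with H2O. The WKY arrays read 3.47 and 3.46 with amlodipine, against 2.22 and 2.48 with H2O. The 4 SHRSP arrays lay close together, and WKY with H2O stood lowest. SHRSP exceeded WKY by 1.72 with amlodipine and by 3.08 with H2O, and the difference of responses was -1.36 ± 0.15 (limma, adjusted p = 0.000151). The strain difference was 1.85 with hydralazine, 2.07 with Solvent B, 2.21 with Solvent C and 2.21 with Solvent A, so that H2O stood apart from the other 5 groups. Against Solvents B and C the difference of responses was -0.41 (adjusted p = 0.311). The other 2 probes of Myh9, GE1197656 and GE20239, had strain differences between -0.50 and 0.26 with amlodipine and H2O and gave -0.22 ± 0.35 (adjusted p = 0.939) and 0.51 ± 0.43 (adjusted p = 0.804). The probes of Myh9 thus disagreed on the strain difference as well. Of the 37 actomyosin and adhesion genes Myh9 was the 1 past the threshold, against 0.24% of all probes for negative values, and the list's median was -0.15.

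Thrsp, the thyroid hormone responsive gene whose product promotes fatty acid synthesis, had the most positive difference of responses of the named genes. It read 3.08 and 2.57 in SHRSP with amlodipine, against 1.79 and 1.78 with H2O. In WKY it read 3.69 and 3.64 with amlodipine, against 4.69 and 4.81 with H2O. Amlodipine arrays were the higher ones in SHRSP and the lower ones in WKY, with no overlap in either strain. SHRSP lay 0.84 below WKY with amlodipine and 2.96 below it with H2O, and the difference of responses was 2.12 ± 0.32 (limma, adjusted p = 0.00262). The strain difference was -1.76 with hydralazine and between -2.07 and -1.96 with Solvents A, B and C. Against Solvents B and C the difference of responses was 1.17 (adjusted p = 0.0948).

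Mmadhc and Nt5c3a were lower in SHRSP than in WKY with amlodipine, hydralazine and each of the 4 vehicles. Mmadhc takes part in vitamin B12 trafficking, and its strain difference was -3.07 with amlodipine and -4.02 with H2O, with a difference of responses of 0.96 ± 0.15 (limma, adjusted p = 0.00504). Nt5c3a, a pyrimidine nucleotidase gene, had strain differences of -3.62 with amlodipine and -4.53 with H2O, and gave 0.90 ± 0.15 (adjusted p = 0.00757). Vps13a, which encodes a lipid transfer protein, had strain differences of -1.44 with amlodipine and -2.48 with H2O on probe GE1158562 and gave 1.04 ± 0.23 (adjusted p = 0.0444). Its other probes, GE1176927 and GE1274505, gave 0.11 ± 0.26 (adjusted p = 0.98) and 0.21 ± 0.34 (adjusted p = 0.938). Leaving out any 1 of 5 arrays ended the call of Vps13a, with values down to 0.82. In hydralazine and Solvents A, B and C the strain difference lay between -4.38 and -3.31 for Mmadhc, between -4.29 and -3.79 for Nt5c3a and between -2.49 and -1.86 for Vps13a. Against Solvents B and C none of them passed the threshold, at 0.47 for Mmadhc (adjusted p = 0.223), 0.62 for Nt5c3a (adjusted p = 0.0697) and 0.57 for Vps13a (adjusted p = 0.406).

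In Mtres1 and Ros1 the strain difference was larger with amlodipine. Mtres1, a mitochondrial transcription rescue factor gene, read 1.63 and 1.71 in SHRSP with amlodipine, against 0.83 and 0.84 with H2O. WKY arrays read -1.04 and -1.40 with amlodipine, against -0.90 and -0.71 with H2O. SHRSP exceeded WKY by 2.88 with amlodipine and 1.64 with H2O, and the difference of responses was 1.24 ± 0.16 (limma, adjusted p = 0.000948). With Solvents B and C the strain differences were 3.02 and 2.91, and against them the difference of responses turned to -0.08. Ros1, an orphan receptor tyrosine kinase gene, had strain differences of -2.85 with amlodipine and -1.61 with H2O on probe GE20025 and gave -1.24 ± 0.25 (adjusted p = 0.0264). Its strain difference was between -2.87 and -2.62 in the other 4 groups, and against Solvents B and C it gave -0.15 (adjusted p = 0.971). Probe GE21801 gave 0.45 ± 0.34 (adjusted p = 0.769), with every SHRSP array of both groups at the floor, so that its level there was only a bound. For Ros1 the call ended without WKY H2O replicate 1 (-0.94), SHRSP H2O replicate 2 (-1.20), SHRSP amlodipine replicate 1 (-1.02), WKY amlodipine replicate 1 (-1.24) or WKY amlodipine replicate 2 (-1.23).

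Trap1, Spg11, Ubr7, Cox7a2l and Fhip2a, chosen after their values were seen, were further genes of this kind. Trap1, a mitochondrial chaperone gene, had strain differences of -2.18 with amlodipine and -2.96 with H2O. Spg11, which takes part in lysosome recycling, had 3.36 and 4.35. Ubr7 had 1.61 with amlodipine and 2.62 with H2O, Cox7a2l 1.98 and 2.64, and Fhip2a 1.54 and 2.68, in that order of treatment. In Spg11, Ubr7, Cox7a2l and Fhip2a the WKY arrays with H2O were the lowest of the 8, as in Myh9. Against Solvents B and C, Trap1 gave 0.29, Spg11 -0.21, Ubr7 -0.50, Cox7a2l -0.13 and Fhip2a -0.12. None of these values passed the threshold.

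Of the remaining named genes, Mthfd1l, a mitochondrial folate enzyme gene, read -1.0 and -1.26 in SHRSP with amlodipine, against 0.52 and 1.18 with H2O. The WKY arrays read -0.86 and -0.62 with amlodipine, against -0.15 and -0.08 with H2O. It was lower on the amlodipine arrays in both strains, with mean changes of -1.98 in SHRSP and -0.63 in WKY, and the difference of responses was -1.35 ± 0.23 (limma, adjusted p = 0.00732). Npy1r, the neuropeptide Y receptor gene, gave 0.80 ± 0.14 on probe GE14504 (adjusted p = 0.00757) and 0.05 ± 0.26 on GE22210 (adjusted p = 1.0). RGD1559600 gave 0.91 ± 0.17 (adjusted p = 0.0142), and 0.82 without WKY amlodipine replicate 2 (adjusted p = 0.0682). In hydralazine and Solvents A, B and C the strain difference lay between 0.04 and 0.39 for Mthfd1l, between 0.15 and 0.36 for Npy1r and between -0.64 and 0.03 for RGD1559600. Against Solvents B and C the differences of responses were -0.52 for Mthfd1l (adjusted p = 0.45), 0.38 for Npy1r (adjusted p = 0.304) and 0.59 for RGD1559600 (adjusted p = 0.123).

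Another 5 named genes past the threshold had a group with no good flag on either array, so that their level there was only a bound and the fitted value depends on the floor. They were Ldha on probe GE20283, Skil on GE1118351, Hspa9, Cenpt and Ropn1l. Ldha, which encodes a subunit of lactate dehydrogenase, lay at the floor on all 4 WKY arrays on GE20283, and its bright probe GE21808 gave -0.13 ± 0.13 (limma, adjusted p = 0.857). Skil, the SMAD repressor gene, gave -0.24 ± 0.17 on its brighter probe GE18219 (adjusted p = 0.727). Entpd2, an ATP-hydrolysing ectoenzyme gene measured with good flags in all groups and chosen after its values were seen, gave -0.80 ± 0.14 (adjusted p = 0.0102). Against Solvents B and C it gave -0.32 (adjusted p = 0.482). Its strain difference was -0.89 with amlodipine, -0.09 with H2O and between -0.66 and -0.49 with hydralazine and Solvents A, B and C.

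The targets of amlodipine themselves did not pass the threshold. Cacna1c, the pore subunit of the L-type channel of smooth muscle and heart, read -0.49 and -0.60 in SHRSP with amlodipine, against -1.18 and -0.92 with H2O. The WKY arrays gave -0.47 and -0.61 with amlodipine, against -0.97 and -0.98 with H2O. Amlodipine arrays were the higher ones in both strains, and the difference of responses was 0.06 ± 0.26 (limma, adjusted p = 1.0). The auxiliary subunit genes gave 0.91 ± 0.28 for Cacnb2 (adjusted p = 0.191), which had no good flag in SHRSP with H2O, and -0.14 ± 0.29 for Cacna2d1 (adjusted p = 0.972). None of the 15 voltage-gated channel genes measured passed the threshold, and the median was 0.01. An unadjusted p under 0.05 was found for 1 of them, against 2368 of all 24993 probes. The smooth muscle and pericyte list had 0 of 16 past the threshold, 3 with an unadjusted p under 0.05, and a median of -0.09. In it Tagln, a calponin-family actin-binding gene, gave -0.97 (adjusted p = 0.209).

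Genes of the nephron segments had no call. In the principal cell and sodium channel list 18 of 22 values were positive, where 51.2% of all probes were negative, with a median of 0.18. An unadjusted p under 0.05 was seen for 3, against 2368 of all 24993 probes. The list had 3 genes higher in SHRSP past the threshold with amlodipine (4.48% of all probes were) and none lower. With H2O it had 2 higher (5.19% of all probes) and 1 lower. In either direction 9.01% of all probes were called with amlodipine and 10.1% with H2O. Its most positive member was Tsc22d3, a glucocorticoid and aldosterone induced gene, at 0.84. The renin-angiotensin and juxtaglomerular list had a median of 0.09 over 19 genes, with the angiotensinogen gene Agt at 0.87. Medians were 0.03 for 28 proximal tubule genes, 0.03 for 12 thick limb genes, -0.05 for 20 distal convoluted tubule genes, -0.01 for 15 intercalated cell genes, -0.04 for 16 podocyte genes and 0.01 for 20 endothelial genes. Umod, Egf and Calb1, genes of the thick limb and distal tubule, gave -0.00 ± 0.22, 0.40 ± 0.38 and -0.13 ± 0.20, and none passed the threshold (adjusted p = 1.0, 0.85 and 0.933). Umod was higher on the amlodipine arrays than on the H2O arrays in both strains, at 7.51 and 7.67 against 6.69 and 6.53 in SHRSP and 6.97 and 7.14 against 5.90 and 6.24 in WKY.

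The remaining 15 lists had no member past the threshold on the probe used for the list. Their medians ran from -0.36 for 4 erythroid and platelet genes, -0.20 for 14 lymphocyte genes and -0.18 for 6 skeletal muscle genes, through -0.11 for 20 cholesterol synthesis genes, -0.09 for 30 oxidative stress genes, -0.08 for 18 nitric oxide, natriuretic and endothelin genes and -0.06 for 28 immediate early genes. Medians of -0.01 for 41 calcium handling genes, -0.00 for 28 cytochrome P450 and transporter genes, 0.04 for 25 hypoxia and glycolysis genes, 0.05 for 28 fatty acid oxidation genes, 0.06 for 7 adrenal genes and 0.07 for 12 fibroblast genes lay near the 0.0 of all probes. The 23 unfolded protein and heat shock genes had a median of 0.10, and the 17 clock genes one of 0.16.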

How the data were processed

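Arrays were CodeLink rat arrays hybridised with Cy5-labelled kidney RNA, per the labels' protocols. The authors deposited 1 file for each of the 40 arrays (20 groups), holding per probe an intensity named as normalised and a flag for signal quality, per the file headers. How these intensities were made is not stated by the sources used here. Of 33849 probes 16753 had 1 gene symbol, 165 several and 16931 none. No deposited column belonged to a sample outside the series (0 columns).

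Deposited intensities of all 40 arrays were quantile normalised and floored at 0.38, the 1st percentile over good-flagged signals, before log2 was taken. Probes were kept where some group had a good flag on both its arrays and every group had a value, which left 24993. The model had 20 group means and 20 residual degrees of freedom (limma 3.58.1 under R 4.3.3, with lmFit and eBayes), and p-values were adjusted over all probes by Benjamini-Hochberg. Replicates were numbered in accession order. On simulated data with 24319 probes the fit recovered 26.9%, 68.7% and 92.5% of planted differences of responses of 0.5, 1 and 2 on the log2 scale, and 8 of 134 calls were not planted. Simulated errors were independent and normal, with each probe's residual spread pooled over all groups. They held no shift that depends on both session and strain and no array of wider spread, so these rates cover that setting only.

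Named genes were the 10 most positive and 10 most negative calls with 1 symbol, up to 3 called members of each of 33 gene lists by smallest p, and a panel of 17 genes whatever their p, of which 15 were tested. Gene names were updated through RefSeq GRCr8. For the highest and lowest calls a gene's probe with the smallest p was used. For a list it was the brightest of a gene's tested probes with a value on every array. Members, lists and rules were chosen with earlier results of these data known. Alternatives were other references, background corrections, scalings, filters, fits and blocks, and leaving out each array. Python 3.11.15, NumPy 2.4.6, pandas 2.3.3 and Matplotlib 3.10.9 made tables and plots.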

Additional observations from a re-analysis of the deposited data

Results flagged for a closer look

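Named genes whose change from H2O to amlodipine arrays differed between SHRSP and WKY past the threshold are given here. The test was of the difference itself (limma over all probes, adjusted p under 0.05). The rule named them for passing it, as 0.396% of all probes did. Values are the log2 change from H2O to amlodipine in SHRSP minus that in WKY, with 2 arrays per group. The H2O arrays lay in another scan session and slide series. Against Solvents B and C 2 of the 24 genes stayed past the threshold. Positive values were found for Thrsp (2.12), Mtres1 (1.24), Vps13a (1.04), Mmadhc (0.96), RGD1559600 (0.91), Nt5c3a (0.90) and Npy1r (0.80). Ldha (1.39), Skil (1.10) and Hspa9 (0.91) were also positive, with a group in each that had no good flag.

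Negative values among genes of injury, matrix, immunity and the cell cycle were those of Gpnmb (-1.80), Col15a1 (-0.85), Tnc (-0.87), Psmb8 (-0.94), Mcm5 (-1.53), Cdk1 (-1.44), Ube2c (-0.99) and Cenpt (-1.39). Cenpt had no good flag in SHRSP with amlodipine. Negative values of other genes were those of Tnmd (-1.36), Myh9 (-1.36), Mthfd1l (-1.35), Nrep (-1.32), Ros1 (-1.24) and Ropn1l (-1.32), the last without a good flag in SHRSP with H2O. No sample could be tested as an outlier within its group, since each group had 2 arrays.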

How the results depend on the processing

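The number of probes with a called difference of responses, 99, depended on the choices made. It was 12 with hydralazine and 30 with Solvents B and C in place of H2O, 47 with normexp, 64 with median scaling, 28 with the authors' deposited table, 43 when only the 17572 probes flagged good throughout the 8 arrays were tested, 1 with the 8 arrays alone (none of the 99), 50 with array weights, 300 with scan session as a fixed block and 206 with it as a random block. Leaving out 1 array gave 66 (without WKY H2O replicate 1) to 263 (without SHRSP H2O replicate 1), with 192 without WKY H2O replicate 2 and 159 without SHRSP amlodipine replicate 1. The share of positive calls was 71.2% without WKY H2O replicate 1 and 20.9% without SHRSP H2O replicate 1, against 39.4%. Without SHRSP H2O replicate 2 there were 88 calls, of which 43 were among the 99. The strain difference was called for 1105 probes with amlodipine and 1027 with H2O in the 8 arrays alone, and for 3683 with amlodipine with session as a fixed block. Over left-out arrays these counts ran from 1403 to 2272 with amlodipine and from 1416 to 2561 with H2O. Against hydralazine the sign turned for Mtres1 (-0.22), Gpnmb (0.03), Ros1 (0.02) and Col15a1 (0.17), and against Solvents B and C for Mtres1 (-0.08). The cause was not tested. The fits over fewer probes or arrays have less data by construction. Of the 24 named genes called, 10 stayed past the threshold whichever array was left out, namely Thrsp, Ldha, Mtres1, Mmadhc, Nt5c3a, Npy1r, Tnmd, Myh9, Mthfd1l and Nrep. The other 14 lost it in at least 1 case. Of the same 24, 9 stayed past it against the mean of the 4 vehicles, 2 against Solvents B and C, 1 against hydralazine, 14 with array weights, 13 with the deposited table and 0 with the 8 arrays alone. Signs of uncalled named genes turned in 24 cases. Of 726 list medians under alternatives 10 moved by more than the median standard error of the list's single probes, a wide yardstick for a median. Over alternatives other than left-out arrays the tubular injury median ran from -0.68 to 0.02. Those of the macrophage and antigen presentation lists ran from -0.31 to -0.04 and from -0.22 to 0.04. No paired analysis was possible because the labels carry no replicate numbers or pairs. Signal near background limits the 42 calls flagged below good on any of the 8 arrays.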
